A study of Saccharomyces cerevisiae with 12 samples.

Results

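The 39 genes described here encode yeast enzymes of amino acid synthesis outside the branched-chain and sulfur pathways. They were chosen by their systematic names from 7 pathways. That rule used no read counts, but it was set with earlier results of these data known. The pathways comprised 8 genes of arginine synthesis, 5 of histidine, 7 of lysine, 8 of tryptophan and the aromatic trunk, 5 of threonine, 4 of serine and 2 of asparagine. All 39 were present among the 5917 coding sequences counted, and all 39 passed the expression filter in every comparison. Total RNA was sequenced from wild-type *Saccharomyces cerevisiae* and from *mrn1Δ* cells, which lack the RNA-binding protein Mrn1, in fermentative and respiratory growth. The 4 groups each had 3 libraries, from triplicate cultures, giving 12 in all.

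Wild-type fermentative cells were BY4741, a haploid laboratory strain, in log-phase growth in YEPD, a rich medium with 2% glucose, at an OD600 of 0.6. The *mrn1Δ* fermentative cells were the same strain with a kanamycin resistance cassette at the *MRN1* locus, grown in the same way. Wild-type respiratory and *mrn1Δ* respiratory cells were grown likewise and then spent 20 minutes in YEPEG, in which 2% ethanol and 2% glycerol replace glucose. All groups therefore came from a rich medium that supplies amino acids, and all carried the auxotrophic alleles of BY4741 in *HIS3*, *LEU2*, *MET17* and *URA3*. Each genotype was 1 strain, and the number of independent *mrn1Δ* clones was not given in the sources used here.

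Yeast makes amino acids from intermediates of glycolysis, the pentose phosphate pathway and the citric acid cycle, and it takes them up from the medium when they are present. Many of the genes for these enzymes are activated by Gcn4, a transcription factor whose translation rises when amino acids run short and which binds the sequence TGACTCA. Bas1 binds the overlapping word TGACTC and activates some histidine genes as well as purine genes, and Lys14 activates lysine genes through the word TCCNNNGGA.

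The words bound by these factors were searched on both strands in the 300 bases before each start codon of the R64 genome. TGACTC was present before 27 of the 39 genes (69.2%) and before 458 of 5904 genes with a full window (7.76%). The longer word TGACTCA, every match of which also contains TGACTC, was present before 17 of the 39 (43.6%) and before 154 of the 5904 (2.61%). TCCNNNGGA was present before 4 of the 39 (10.3%) and before 186 of the 5904 (3.15%). These 4 were *LYS1*, *LYS9*, *LYS12* and *THR4*, and *LYS9* had 2 such sites. A match describes the letters in the window and does not show that a factor bound there. The sites below are 30 bases each, read 5′ to 3′ on the strand of the gene, with the matched word in capitals (GAGTCA is TGACTC on the opposite strand). They were chosen from the genes on which the results below turn, and include *TRP4*, whose level did not pass the test of the shift in either genotype.
HIS1, chrV:265951-265980, minus strand: aagcttccaagTGAGTCAcctctaccgttg
HOM3, chrV:258223-258252, minus strand: tttcaggcccaTGACTCAccttttctttct
THR1, chrVIII:159325-159354, plus strand: aaatttgtgcaaGAGTCAtcatctcgaaaa
SER2, chrVII:911716-911745, plus strand: ccgagaaagaaaGAGTCAatactaataatc
SER33, chrIX:222627-222656, minus strand: cacgctggaaacGAGTCAccgttatgaaaa
TRP4, chrIV:1184570-1184599, plus strand: acctacgcagatTGACTCtctaaaaaatga
LYS9, chrXIV:715532-715561, minus strand: attgagaattTCCAATGGAattatcagcaa

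The site of *THR1*, 101 bases before its start codon, was the nearest of all TGACTC sites of the 39 genes, and that of *CPA1*, at 295 bases, was the farthest. *HIS4* had 3 copies of TGACTC, and *HIS1*, *HIS7*, *ARG5,6* and *LYS1* had 2 each. No TGACTC was found in the window of *ARG3*, *HIS2*, *LYS4*, *LYS9*, *LYS20*, *LYS21*, *TRP5*, *ARO2*, *ARO3*, *ARO4*, *HOM6* or *SER3*. Among genes for the same step, *SER33* held the word and its paralogue *SER3* did not, *LYS20* and *LYS21* both lacked it, and so did *ARO3* and *ARO4*, while *ASN1* and *ASN2* both held the longer TGACTCA.

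Library totals ranged from 16231559 to 26542199 estimated counts. *MRN1* stood at 98.2, 137 and 124 CPM (counts divided by library size and scaled to 1000000, with library sizes adjusted by the TMM method) in the wild-type fermentative libraries and at 84.6, 88.0 and 86.5 in the wild-type respiratory ones, and at no more than 0.65 CPM in any *mrn1Δ* library. *LEU2*, *URA3* and *MET17* held at most 12 counts in any library. Of 6 genes known to be repressed by glucose, 5 were called higher after the shift in each genotype. Over all genes tested, 38.6% were higher in wild-type and 43.2% in *mrn1Δ* cells. The remaining gene was not called, and in wild-type cells its log2 fold change was -0.51. Of the a-specific mating-type genes, *STE2* was at 79.0 to 199 CPM, and the alpha-specific *STE3* was at 1.99 to 4.72 CPM. The 3rd wild-type fermentative library was the shallowest. The 1st stood apart from the rest, with 15.3% of its counts on coding sequences under 600 bases, against 11.7% to 12.4% in the other 5 fermentative libraries, and 0.526% on *TAR1*, a gene within the ribosomal DNA, against 0.0149% to 0.0795% in the other 11. Respiratory libraries held 7.18% to 8.33% of their counts on coding sequences under 600 bases. Calls of the 39 genes lost or gained without the 1st wild-type fermentative library are given beside the results.

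The 39 genes had between 68 counts (*ARG3*) and 22981 counts (*ASN2*) in a library, and none was at 0. Together they took 1.0% to 1.09% of the counts of a fermentative library and 0.545% to 0.623% of a respiratory one, with no overlap between conditions in either genotype. Compared per length, in TPM (transcripts scaled to 1000000 per library), *LYS20*, which encodes the major homocitrate synthase of lysine synthesis, was the most abundant of the 39 in wild-type fermentative cells, at 564 ± 31.9 TPM (SD, n = 3). *ASN2*, for asparagine synthetase, followed at 522 ± 54.2 TPM and *HOM6*, for homoserine dehydrogenase, at 495 ± 13.0 TPM, and neighbours in this order did not differ beyond their spread. At the other end were *ARG8* at 26.8 ± 3.11 TPM and *ARG3* at 14.0 ± 2.15 TPM. In wild-type respiratory cells *HOM6* (446 ± 3.34 TPM) and *ASN2* (440 ± 21.5 TPM) came highest, within their spread of each other, while *LYS20* was at 174 ± 5.46 TPM. *ARG3* remained the lowest, at 5.10 ± 0.723 TPM.

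**Figure D1:**
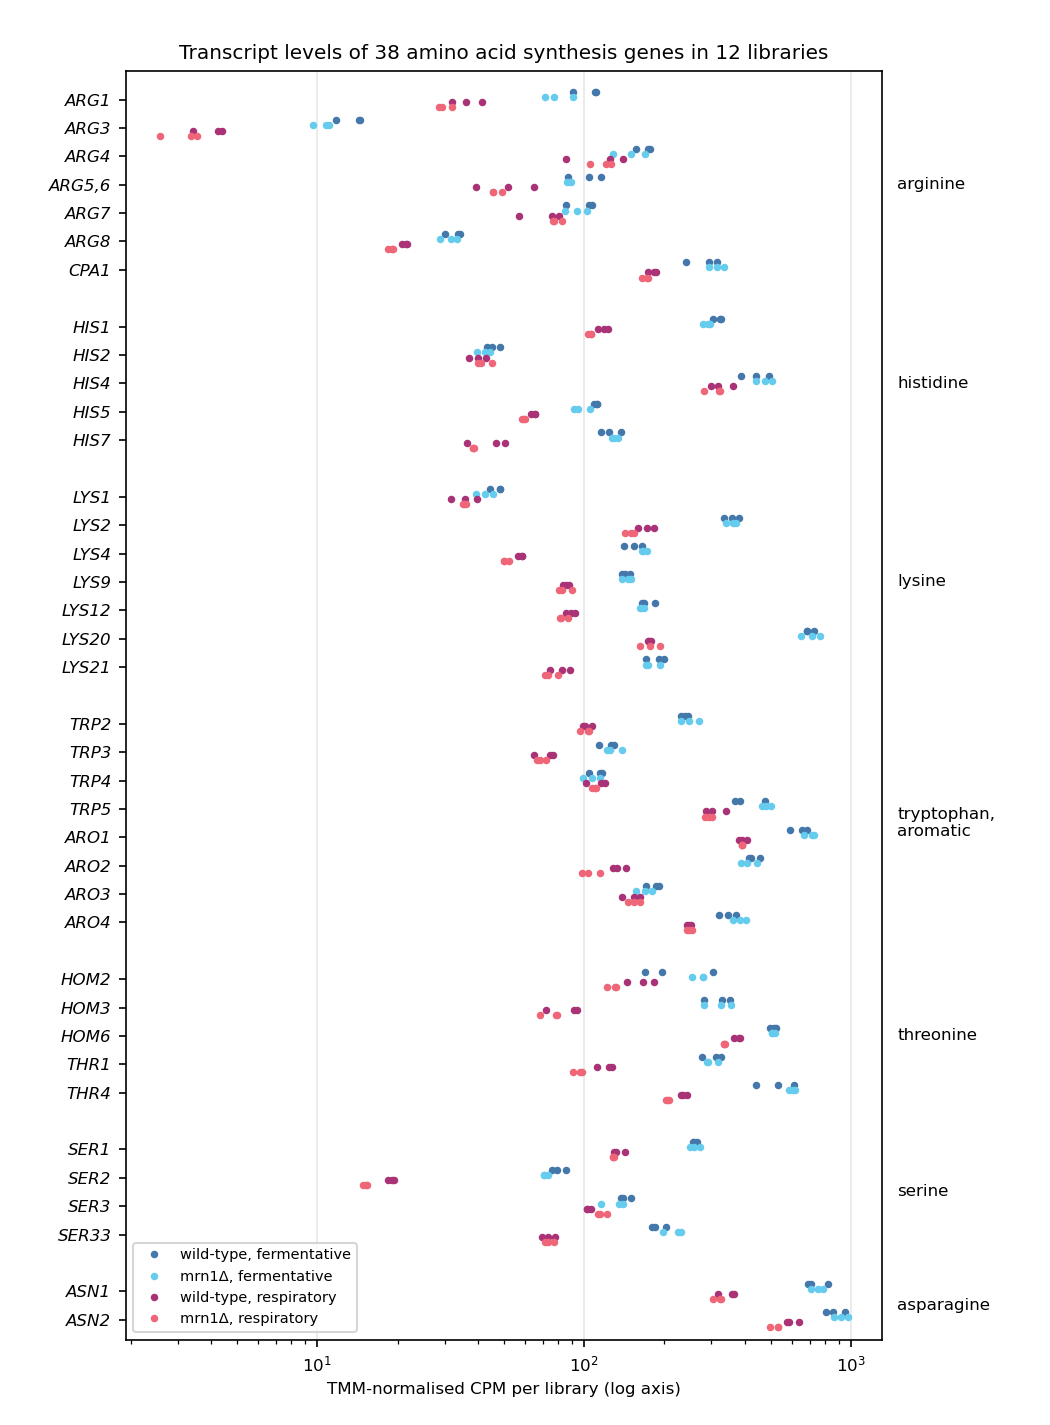
Level of 38 of the 39 genes (rows, by pathway) in each of the 12 libraries, as TMM-normalised CPM on a log axis, coloured by genotype and condition. Respiratory points lie to the left of fermentative points in most rows, and *ARG3* has the lowest values of all. Within a genotype, conditions overlap for *TRP4* in both genotypes, for *HOM2* in wild-type, and for *HIS2*, *ARO3* and *SER3* in *mrn1Δ* cells.

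The shift from glucose to ethanol and glycerol was compared within each genotype, between 3 fermentative and 3 respiratory libraries. In wild-type cells 36 of the 39 genes were lower after 20 minutes and none was higher (edgeR's quasi-likelihood test, Benjamini-Hochberg adjusted p under 0.05 over all genes). Among all 5801 genes tested, 36.4% were lower and 38.6% higher. The median log2 fold change of the 39 was -0.85, against 0.03 over all genes tested. The 3 and 3 libraries did not overlap, with the respiratory ones lower, for 37 of the 39, and for 37.3% of all genes, while none of the 39 and 40.4% of all genes lay the other way. In *mrn1Δ* cells 36 of the 39 were again lower and none higher, with 40.3% of all 5793 genes tested lower and 43.2% higher. The median was -0.93, against 0.05 over all genes, and 35 of the 39 did not overlap with the respiratory libraries lower, against 40.5% of all genes, while none of the 39 and 44.3% of all genes lay the other way. CPM are shares of a library, so a lower value cannot be told apart from a change in the total RNA of a cell.

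The 3 genes not called in wild-type cells were *HIS2*, *TRP4* and *HOM2*, and in *mrn1Δ* cells they were *HIS2*, *TRP4* and *ARO3*. Without the 1st wild-type fermentative library, *HOM2* was called lower in wild-type cells (log2 fold change -0.63, adjusted p = 0.0401) and *ARG4* was lost (adjusted p = 0.0516). *HIS2* was called lower in wild-type cells in 7 of 12 alternatives, with adjusted p from 0.0149 to 0.166 over the 12, among them DESeq2 (adjusted p = 0.0359). *HOM2* was called in 4 of the 12, DESeq2 included (adjusted p = 0.0193), and its log2 fold change was -0.15 without the 2nd fermentative library. *ARO3* was called lower in *mrn1Δ* cells without the 1st fermentative or the 3rd respiratory library (adjusted p = 0.0181 and 0.0395) and by DESeq2 (adjusted p = 0.0296). Same-numbered wild-type libraries deviated together, and when replicates were blocked by number 38 of the 39 were lower in wild-type cells, adding *HIS2* (adjusted p = 0.0258) and *HOM2* (adjusted p = 0.0108).

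**Figure D2:**
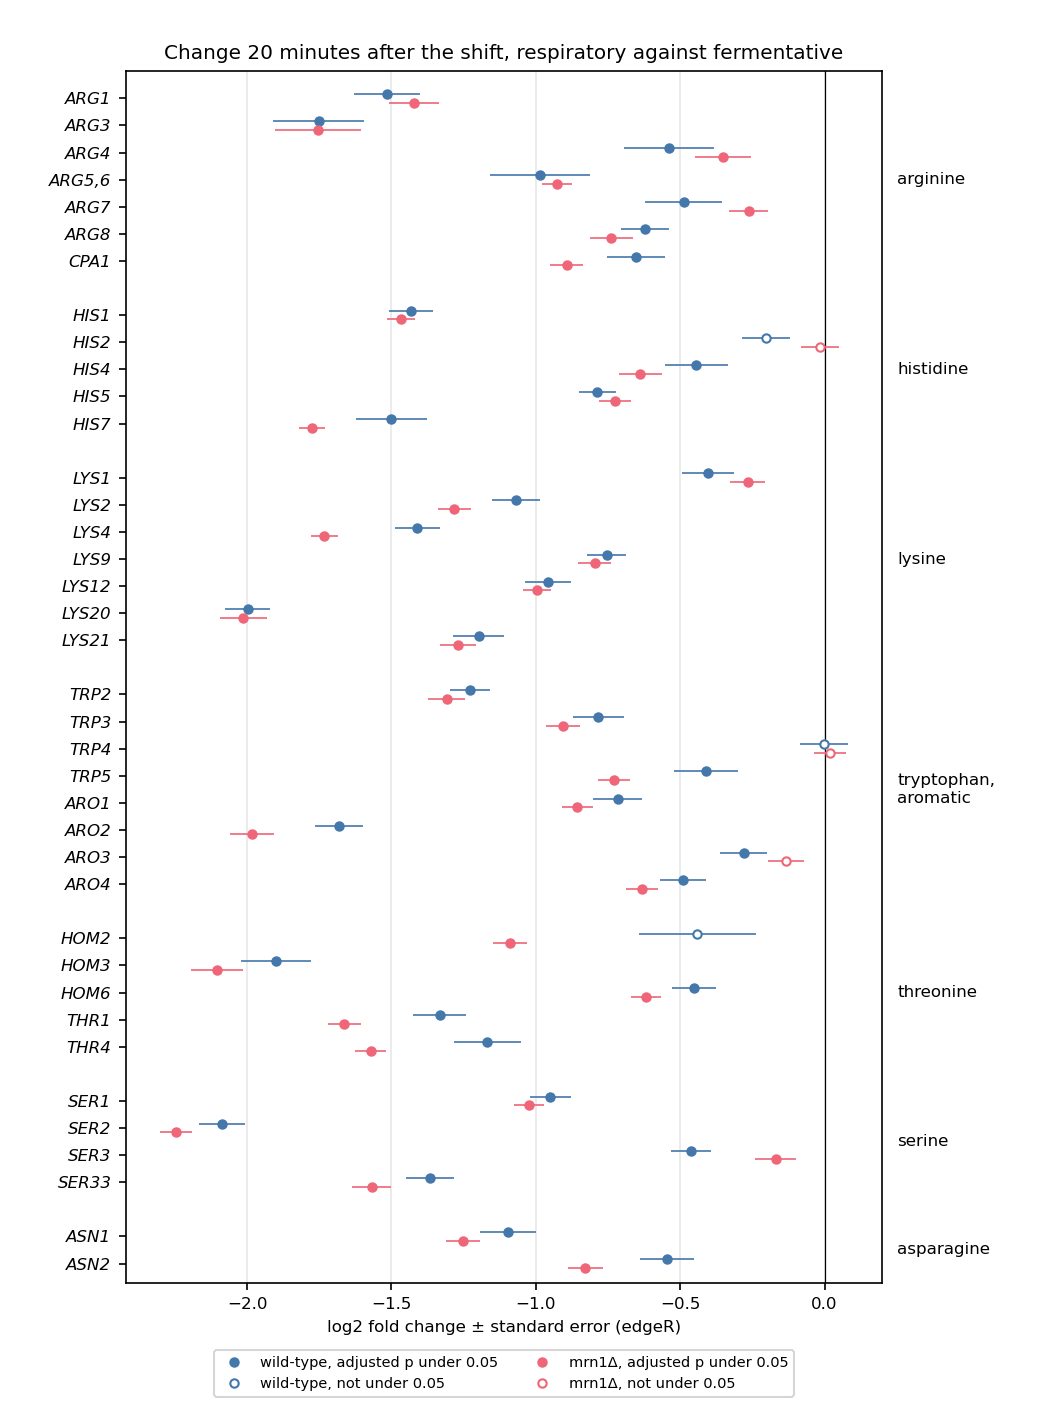
Log2 fold change of respiratory against fermentative growth for 38 of the 39 genes, in wild-type and *mrn1Δ* cells, with standard errors from edgeR and filled points for an adjusted p under 0.05. All points but those of *TRP4*, *HIS2* and a few weak changes lie clearly left of 0, from *SER2* at -2.09 and -2.25 to *TRP4* near 0.

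All 8 arginine genes were lower after the shift in both genotypes, with a median log2 fold change of -0.75 in wild-type and -0.83 in *mrn1Δ* cells. *ARG3* (YJL088W), for ornithine carbamoyltransferase, which makes citrulline, stood at 11.8, 14.5 and 14.3 CPM in wild-type fermentative libraries and at 3.43, 4.41 and 4.25 CPM in respiratory ones. The groups were well apart, a 3.37-fold fall (log2 fold change -1.75 ± 0.16 SE, adjusted p = 6.82e-06), and in *mrn1Δ* cells the fall was 3.38-fold (adjusted p = 1.36e-06). *ARG1* (YOL058W), for argininosuccinate synthetase, fell 2.86-fold in wild-type cells, from 90.6, 111 and 109 CPM to 31.9, 41.4 and 36.0 CPM (adjusted p = 2.22e-06). *ARG4*, for argininosuccinate lyase, which completes arginine, showed a smaller change. Its wild-type libraries were at 156, 177 and 173 CPM before and at 85.8, 125 and 140 CPM after the shift, and the 1st respiratory library was the lowest (log2 fold change -0.54 ± 0.16 SE, adjusted p = 0.0123). *CPA1*, which takes part in making the carbamoyl phosphate that feeds this pathway, had a log2 fold change of -0.65 ± 0.10 SE in wild-type cells. The enzymes of the mitochondrial ornithine branch, *ARG5,6*, *ARG7* and *ARG8*, fell by 0.99, 0.49 and 0.62 on the log2 scale in wild-type cells, and by 0.93, 0.26 and 0.74 in *mrn1Δ* cells.

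Of the 5 histidine genes, 4 were lower in each genotype. *HIS1* (YER055C), for ATP phosphoribosyltransferase, the enzyme that commits the pathway and that histidine inhibits, fell from 323, 325 and 304 CPM to 123, 112 and 119 CPM in wild-type cells. In *mrn1Δ* cells it fell from 279, 290 and 296 CPM to 104, 106 and 106 CPM. Conditions did not overlap in either genotype, and the falls were 2.70-fold and 2.77-fold (adjusted p = 2.58e-07 and 1.08e-09). *HIS7*, for imidazole glycerol phosphate synthase, fell 2.83-fold in wild-type and 3.42-fold in *mrn1Δ* cells. *HIS4*, a trifunctional enzyme, had 3 TGACTC words and fell from 387, 494 and 441 CPM to 298, 362 and 316 CPM in wild-type cells (log2 fold change -0.44 ± 0.11 SE, adjusted p = 0.00516). *HIS5*, for the aminotransferase of the pathway, fell by 0.79 and 0.73 on the log2 scale in wild-type and *mrn1Δ* cells. *HIS2* (YFR025C), for histidinol phosphate phosphatase, was at 48.5, 43.4 and 45.3 CPM before and at 40.0, 37.1 and 42.7 CPM after the shift in wild-type cells. These groups were close but did not overlap (log2 fold change -0.20 ± 0.08 SE, adjusted p = 0.0516). In *mrn1Δ* cells the corresponding libraries, at 39.7, 42.4 and 44.6 CPM and at 45.3, 40.0 and 41.0 CPM, did overlap, and the 95% interval of the log2 fold change ran from -0.14 to 0.11.

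All 7 lysine genes were lower in both genotypes, with medians of -1.07 in wild-type and -1.27 in *mrn1Δ* cells. Homocitrate synthase, the enzyme that starts the pathway and is inhibited by lysine, is encoded by *LYS20* and *LYS21*. *LYS20* (YDL182W) fell from 686, 727 and 684 CPM to 179, 174 and 175 CPM in wild-type cells and from 651, 712 and 762 CPM to 161, 177 and 192 CPM in *mrn1Δ* cells. These were 3.99-fold and 4.04-fold falls (adjusted p = 5.45e-08 and 4.65e-09), among the largest of the 39. *LYS21* fell 2.29-fold and 2.41-fold. *LYS4*, for homoaconitase, followed *LYS20*, with falls of 2.66-fold and 3.32-fold. In wild-type cells it went from 141, 165 and 154 CPM to 58.7, 56.6 and 58.7 CPM. *LYS12*, for homoisocitrate dehydrogenase, and *LYS2*, for the aminoadipate reductase, fell by 0.96 and 1.07 on the log2 scale in wild-type cells. The enzymes of the last steps, the saccharopine dehydrogenases *LYS9* and *LYS1*, were at the small end, with falls of 0.75 and 0.40 in wild-type and 0.80 and 0.27 in *mrn1Δ* cells. *LYS1*, *LYS9* and *LYS12*, which hold the word TCCNNNGGA, had the 3 smallest falls among the 7 lysine genes in each genotype, a description of few genes that was not tested.

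Of the 8 genes of tryptophan and the aromatic trunk, 7 were lower in wild-type and 6 in *mrn1Δ* cells, and their changes were uneven. *ARO2* (YGL148W), for chorismate synthase, the last step before the pathways to the 3 aromatic amino acids part, fell from 416, 457 and 420 CPM to 133, 144 and 128 CPM in wild-type cells. In *mrn1Δ* cells it fell from 387, 409 and 445 CPM to 97.9, 104 and 115 CPM. The falls were 3.21-fold and 3.95-fold (adjusted p = 1.61e-07 and 3.01e-09). *ARO3* and *ARO4* encode the isozymes that begin the trunk, inhibited by phenylalanine and tyrosine respectively. *ARO3* was at 171, 191 and 186 CPM before and at 139, 162 and 153 CPM after the shift in wild-type cells, which did not overlap (log2 fold change -0.28 ± 0.08 SE, adjusted p = 0.0112). In *mrn1Δ* cells it was at 156, 168 and 179 CPM and at 146, 154 and 163 CPM, which overlapped (-0.13 ± 0.06 SE, adjusted p = 0.0704). *ARO4* and *ARO1*, the latter a large enzyme with 5 activities of the trunk, fell by 0.49 and 0.72 on the log2 scale in wild-type cells and by 0.63 and 0.86 in *mrn1Δ* cells.

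The tryptophan branch itself held the 1 gene of the 39 whose conditions overlapped in both genotypes. *TRP2* and *TRP3* encode the subunits of anthranilate synthase, which opens the branch. *TRP2* fell from 239, 246 and 231 CPM to 101, 99.1 and 107 CPM in wild-type cells (2.34-fold, adjusted p = 4.16e-07), and *TRP3* fell 1.72-fold. *TRP4* (YDR354W), for the next enzyme, anthranilate phosphoribosyltransferase, was at 105, 116 and 115 CPM before and at 102, 120 and 116 CPM after the shift in wild-type cells. Its *mrn1Δ* libraries were at 107, 99.4 and 115 CPM and at 107, 111 and 110 CPM. The ranges overlapped in both genotypes, and the 95% intervals of the log2 fold change ran from -0.17 to 0.16 in wild-type and from -0.09 to 0.13 in *mrn1Δ* cells. *TRP5*, for tryptophan synthase, the last step, fell by 0.41 ± 0.11 SE and 0.73 ± 0.05 SE on the log2 scale.

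The threonine genes had the lowest pathway medians, -1.17 in wild-type and -1.57 in *mrn1Δ* cells, and 4 and 5 of the 5 were lower. In wild-type cells the serine median, -1.16, was nearly the same. *HOM3* (YER052C), for aspartate kinase, which threonine inhibits and which begins the route from aspartate to threonine and methionine, stood at 280, 351 and 328 CPM before and at 72.1, 94.3 and 91.7 CPM after the shift in wild-type cells. In *mrn1Δ* cells it stood at 281, 327 and 355 CPM and at 68.3, 78.3 and 79.1 CPM. These were 3.73-fold and 4.30-fold falls (adjusted p = 7.72e-07 and 6.97e-09). *THR1* (YHR025W), for homoserine kinase, and *THR4* (YCR053W), for threonine synthase, which form the branch to threonine alone, fell 2.52-fold and 2.25-fold in wild-type cells and 3.17-fold and 2.97-fold in *mrn1Δ* cells. The *HOM2* and *HOM6* enzymes act between *HOM3* and *THR1*. *HOM6* changed less, by -0.45 ± 0.08 SE and -0.62 ± 0.05 SE on the log2 scale. *HOM2* (YDR158W), for aspartate semialdehyde dehydrogenase, was spread widely in wild-type fermentative libraries, at 169, 303 and 196 CPM, and was at 145, 184 and 166 CPM after the shift. The 2 conditions overlapped (log2 fold change -0.44 ± 0.20 SE, adjusted p = 0.0813), whereas in *mrn1Δ* cells *HOM2* went from 278, 254 and 278 CPM to 131, 122 and 131 CPM, a 2.13-fold fall.

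The 4 serine genes were all called lower in both genotypes, with medians of -1.16 and -1.30. *SER2* (YGR208W), for phosphoserine phosphatase, the last step, had the largest fall of the 39 in each genotype. It went from 85.3, 75.9 and 78.9 CPM to 19.1, 19.4 and 18.4 CPM in wild-type cells and from 72.9, 70.8 and 70.6 CPM to 15.4, 15.3 and 14.9 CPM in *mrn1Δ* cells, and the replicates of each group were close together. The falls were 4.25-fold and 4.74-fold (adjusted p = 4.87e-08 and 1.61e-10). *SER1*, for the aminotransferase before it, fell 1.93-fold and 2.03-fold. *SER3* and *SER33* encode phosphoglycerate dehydrogenases, which draw 3-phosphoglycerate from glycolysis into the pathway. *SER33* (YIL074C) fell 2.58-fold in wild-type cells, from 203, 184 and 180 CPM to 73.5, 69.7 and 78.0 CPM, and 2.96-fold in *mrn1Δ* cells. *SER3* (YER081W) changed from 138, 140 and 150 CPM to 102, 103 and 107 CPM in wild-type cells (log2 fold change -0.46 ± 0.07 SE, adjusted p = 0.000244). Its *mrn1Δ* libraries overlapped, at 139, 116 and 135 CPM and at 122, 115 and 113 CPM. The call there (-0.17 ± 0.07 SE, adjusted p = 0.0481) was lost under 7 of 12 alternatives, with adjusted p up to 0.152 without the 1st *mrn1Δ* fermentative library. By TPM *SER3* was higher, not lower, after the shift in *mrn1Δ* cells, without overlap.

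Asparagine synthetase is encoded by *ASN1* and *ASN2*, and both were lower in both genotypes. *ASN1* (YPR145W) fell from 706, 817 and 690 CPM to 317, 359 and 364 CPM in wild-type cells (2.14-fold, adjusted p = 6.36e-06), and *ASN2* from 808, 951 and 856 CPM to 576, 638 and 585 CPM (1.46-fold, adjusted p = 0.000554). In *mrn1Δ* cells the falls were 2.38-fold and 1.78-fold.

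The 39 genes were also compared by the presence of TGACTC. The 27 genes with the word had a median log2 fold change of -0.95 in wild-type cells, and the 12 without it had -0.62. In *mrn1Δ* cells the medians were -1.0 and -0.76. With the longer TGACTCA the order was the opposite, with medians of -0.78 for the 17 genes that hold it and -0.95 for the other 22 in wild-type cells, and -0.91 and -1.01 in *mrn1Δ* cells. Over all genes with a full window the medians for TGACTC were -0.08 with the word and 0.04 without it in wild-type cells. Neither word divided the genes by the size of their fall. *ARG3*, *LYS20*, *LYS4* and *ARO2*, which lack TGACTC, fell 2.66-fold or more in wild-type cells, and *TRP4*, which has it, was near 0. These medians are descriptions, and no difference between them was tested.

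In 4 steps the same reaction is carried out by a pair of isozymes, and the share of each pair's counts held by 1 gene was compared between conditions within libraries. Such a share does not depend on scaling between libraries. The shares of all 4 pairs moved with the shift, and in each the fermentative and respiratory libraries of a genotype did not overlap. An exact two-sided permutation test over 400 regroupings within genotype gave p = 0.005 for each pair, which was the smallest p it could give, and 0.005 after Benjamini-Hochberg adjustment over the 4 pairs. *SER3* held 40.4%, 43.2% and 45.4% of the *SER3* and *SER33* counts in wild-type fermentative libraries and 58.2%, 59.6% and 57.7% in respiratory ones. In *mrn1Δ* cells it held 41.4%, 33.9% and 37.0% and then 63.1%, 61.1% and 59.4%. The minor gene of the pair thus became the major one in both genotypes, with a mean difference of 19.6 percentage points. *LYS20* held 78.9% ± 1.01 (SD, n = 3) of its pair in wild-type fermentative and 68.3% ± 2.16 in respiratory cells, and 79.8% ± 0.861 and 70.2% ± 0.771 in *mrn1Δ* cells. *ASN1* went from 45.8% ± 1.06 to 36.6% ± 1.55 in wild-type and from 44.9% ± 0.189 to 37.8% ± 0.0958 in *mrn1Δ* cells. *ARO3* went the other way, from 34.6% ± 0.416 to 37.9% ± 1.66 in wild-type and from 30.5% ± 0.236 to 38.3% ± 1.05 in *mrn1Δ* cells. Counts of the *LYS20*, *SER3* and *ASN1* pairs were partly divided between the genes by the counting tool, since their sequences share reads, and how this affected the shares was not tested.

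**Figure D3:**
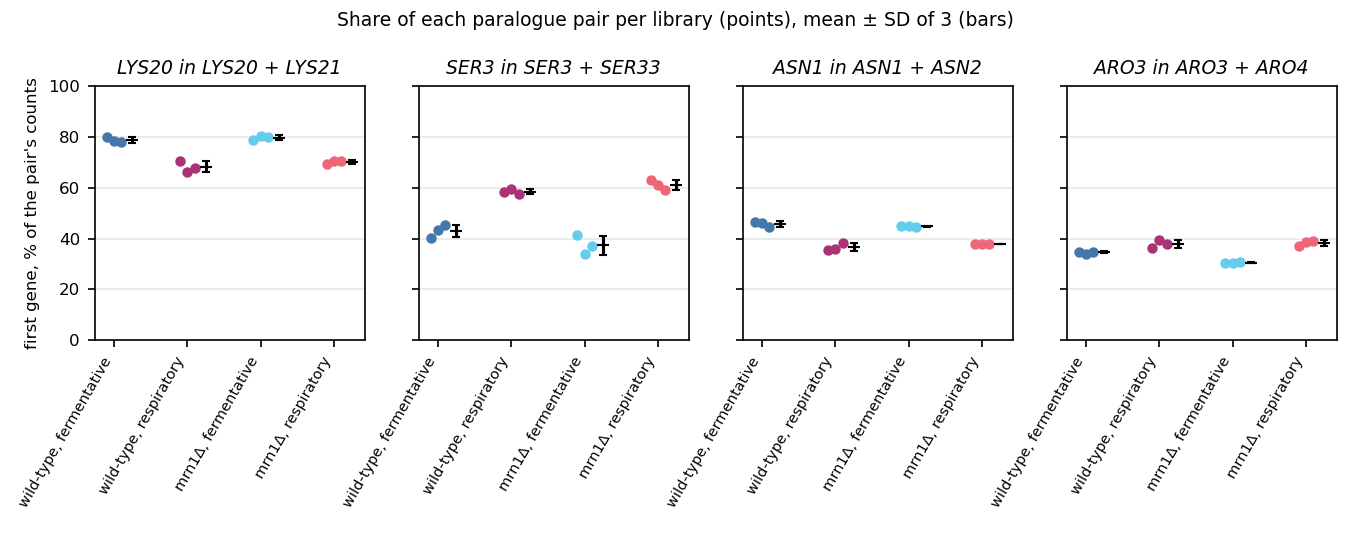
Share of each pair's estimated counts held by the first-named gene, in percent, in each library (points), with the mean and SD of the 3 libraries of a group (bars). *SER3* crosses from under to over the level of *SER33* with the shift, *LYS20* and *ASN1* lose share, and *ARO3* gains a smaller share.

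The genotypes were compared first in fermentative growth, between 3 *mrn1Δ* and 3 wild-type libraries. None of the 39 genes was called by edgeR's quasi-likelihood test, while 0.588% of all 5785 genes tested were higher and 0.328% lower. An unadjusted p under 0.05 was found for 7 of the 39, and DESeq2 called 1 lower, with 0.933% of all genes lower. The median log2 fold change was -0.01, against -0.02 over all genes. The 3 and 3 libraries did not overlap for 4 genes, all lower in *mrn1Δ* cells, and for none that were higher, against 10.4% of all genes lower and 11.5% higher. The 4 were *ARG3*, *HIS1*, *HIS5* and *SER2*. *ARG3* was at 11.8, 14.5 and 14.3 CPM in wild-type and at 10.8, 9.69 and 11.1 CPM in *mrn1Δ* cells (log2 fold change -0.36 ± 0.12 SE, adjusted p = 0.227). *HIS1*, *HIS5* and *SER2* differed by -0.14, -0.20 and -0.17, with adjusted p of 0.338, 0.251 and 0.322. Without the 1st wild-type fermentative library 2 genes were called lower, *ARG1* and *ARG5,6*, and without the 2nd *HOM2* was called higher.

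After the shift, 5 of the 39 were lower in *mrn1Δ* than in wild-type cells and 1 was higher, with 7.83% of all 5800 genes tested lower and 6.79% higher. The share lower was thus 12.8% of the 39. The median log2 fold change was -0.09, against 0.00 over all genes. The libraries did not overlap for 13 of the 39 with *mrn1Δ* lower, or 33.3%, against 19.1% of all genes, and for 1 with *mrn1Δ* higher, against 15.6% of all genes. With upper-quartile in place of TMM scaling, 9 of the 39 were lower and none higher. That scaling moved the share of higher genes among all genes called from 46.5% to 31.1%.

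Of the 5 genes called lower, 3 were threonine genes. *THR1* was at 124, 127 and 112 CPM in wild-type and at 90.9, 96.6 and 98.5 CPM in *mrn1Δ* respiratory cells (log2 fold change -0.34 ± 0.06 SE, adjusted p = 0.00766). The groups did not overlap, and *THR1* was called in each of the 6 fits that left out 1 library. *HOM2* was at 145, 184 and 166 CPM against 131, 122 and 131 CPM (-0.36 ± 0.08 SE, adjusted p = 0.0175). *THR4* was at 243, 230 and 234 CPM against 202, 204 and 208 CPM (-0.20 ± 0.05 SE, adjusted p = 0.0306). The other threonine genes, *HOM3* and *HOM6*, had log2 fold changes of -0.18 and -0.16 and did not pass the test. All 5 values of this pathway were thus below 0, as were 29 of the 39 and 49.9% of all genes tested. Without the 1st wild-type respiratory library *HOM3* was called lower (-0.30, adjusted p = 0.0231), as were *HIS7* (-0.34, adjusted p = 0.0116) and *ARG1* (-0.36, adjusted p = 0.0223). *HOM6* did not overlap, at 383, 380 and 364 CPM against 335, 338 and 333 CPM (adjusted p = 0.0988). Outside threonine, *ARO2* was at 133, 144 and 128 CPM in wild-type and at 97.9, 104 and 115 CPM in *mrn1Δ* cells (-0.35 ± 0.07 SE, adjusted p = 0.00995). *SER2* was at 19.1, 19.4 and 18.4 CPM against 15.4, 15.3 and 14.9 CPM (-0.31 ± 0.08 SE, adjusted p = 0.0269). Both were without overlap.

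**Figure D4:**
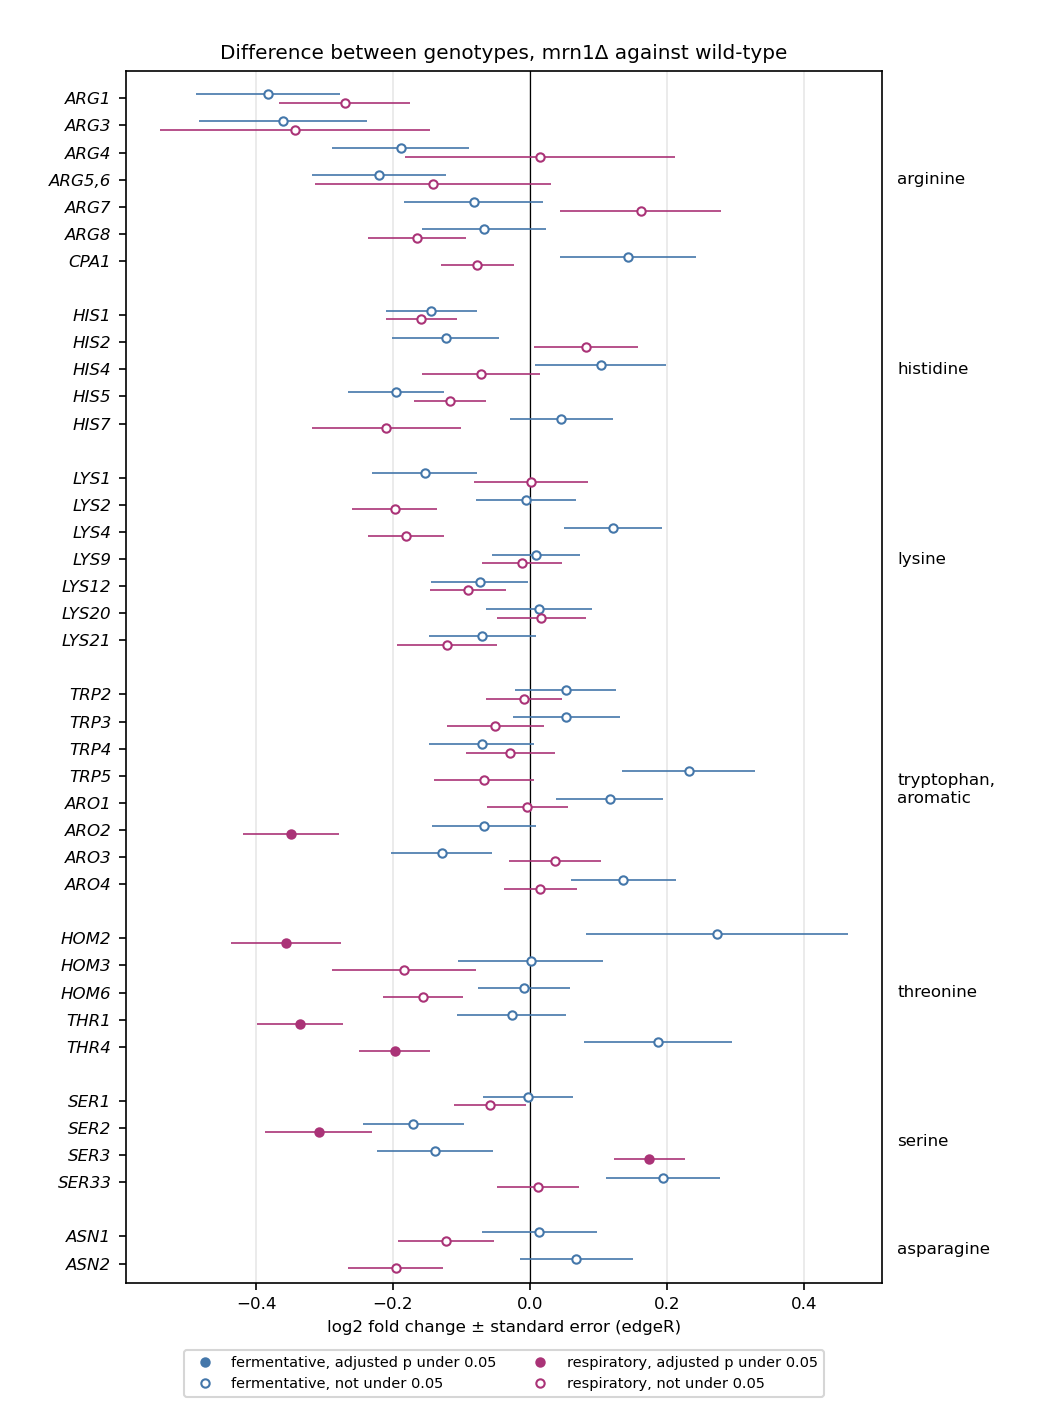
Log2 fold change of *mrn1Δ* against wild-type cells for 38 of the 39 genes, in fermentative and respiratory growth, with standard errors from edgeR and filled points for an adjusted p under 0.05. No fermentative point is filled, and the filled respiratory points are *ARO2*, *HOM2*, *THR1*, *THR4* and *SER2* below 0 and *SER3* above 0.

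Most of these calls were near the threshold and were lost in more than 1 of the fits that left out a library. Such fits also test with fewer libraries. The count of lower genes ran from 1 to 7 when each library was left out. *THR4* was lost without the 1st or 3rd wild-type or any of the *mrn1Δ* respiratory libraries (adjusted p of 0.0704 to 0.123), and *SER2* without the same ones (0.0577 to 0.0822). *HOM2* was lost without the 3rd wild-type or any of the *mrn1Δ* libraries (0.0523 to 0.0798), and *ARO2* without the 1st or the 2nd *mrn1Δ* library (0.0553 and 0.0526). With 1 library left out, the log2 fold change lay between -0.18 and -0.21 for *THR4*, between -0.30 and -0.42 for *ARO2* and between -0.27 and -0.44 for *HOM2*, whose extremes were the fits without the 2nd and the 1st wild-type library. The 1 higher gene, *SER3*, was at 102, 103 and 107 CPM in wild-type and at 122, 115 and 113 CPM in *mrn1Δ* cells (0.17 ± 0.05 SE, adjusted p = 0.0479). The groups did not overlap, but the call was lost in 10 of 12 alternatives, among them DESeq2 (adjusted p = 0.0616) and each fit without 1 library (0.0727 to 0.189).

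The remaining genes without overlap did not pass the test. *LYS4* was at 58.7, 56.6 and 58.7 CPM in wild-type and at 52.4, 50.3 and 49.9 CPM in *mrn1Δ* cells (log2 fold change -0.18 ± 0.05 SE, adjusted p = 0.051). *LYS2* was at 159, 172 and 182 CPM against 142, 150 and 153 CPM (-0.20 ± 0.06 SE, adjusted p = 0.058), and *HIS1* at 123, 112 and 119 CPM against 104, 106 and 106 CPM (-0.16 ± 0.05 SE, adjusted p = 0.0674). When 1 library was left out, *LYS4* and *HIS1* were called without the 2nd wild-type library (adjusted p = 0.0485 and 0.0320) and *LYS2* without the 1st (adjusted p = 0.0263). *ASN2*, *ARG8*, *HIS5* and *SER1* differed by -0.20, -0.16, -0.12 and -0.06, with adjusted p of 0.0851, 0.155, 0.169 and 0.510.

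Whether the shift differed between genotypes was tested as the interaction of genotype and condition on all 12 libraries. None of the 39 was called by edgeR's quasi-likelihood test, with 1.12% of all 5828 genes tested higher and 2.11% lower. An unadjusted p under 0.05 was found for 8 of the 39, and DESeq2 called 2 lower, *LYS4* and *THR4*, with 5.44% of all genes lower. The median was -0.09, against 0.01 over all genes, and 26 of the 39 values were below 0. All 5 threonine genes were below 0, with a pathway median of -0.31, while 6 of 8 arginine genes were above 0, with a median of 0.10. *HOM2* had the lowest value, -0.62, with a 95% interval from -1.10 to -0.14 and an adjusted p of 0.194. Without the 2nd wild-type fermentative library, in which *HOM2* was at 303 CPM, 4 genes were called lower, *HOM2*, *THR4*, *LYS4* and *TRP5*.

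The enzymes of the same routes that lie outside the 39 were followed as a list of 13 genes. In wild-type cells 10 were lower and none higher after the shift, against 36.4% of all genes lower and 38.6% higher. In *mrn1Δ* cells 10 were lower and 2 higher, against 40.3% and 43.2% of all genes. The highest log2 fold changes in the list were 0.25 in wild-type cells, not called, and 0.57 in *mrn1Δ* cells. *HIS3*, the histidine gene of which BY4741 keeps a part, was at 57.3, 59.4 and 54.1 CPM before and at 17.0, 22.0 and 19.6 CPM after the shift in wild-type cells (log2 fold change -1.55 ± 0.10 SE). *SHM2*, for the cytosolic hydroxymethyltransferase that makes glycine from serine, fell by 1.49 and *ARO7*, for chorismate mutase, by 1.39 on the log2 scale. Among 10 regulators, 4 were lower and 3 higher in wild-type cells, near the 36.4% and 38.6% of all genes. *GCN4* transcript was at 459, 744 and 607 CPM before and at 437, 586 and 465 CPM after the shift in wild-type cells, which overlapped (-0.29 ± 0.17 SE, adjusted p = 0.163). The 1st library was the lowest in each condition, and without the 1st fermentative one *GCN4* was called lower (-0.47 ± 0.14 SE, adjusted p = 0.0124). In *mrn1Δ* cells it fell from 679, 698 and 729 CPM to 454, 490 and 465 CPM (-0.59 ± 0.06 SE, adjusted p = 3.33e-06). *BAS1* fell by 1.20 and 1.61 on the log2 scale in wild-type and *mrn1Δ* cells. *GCN4* is controlled mainly in translation, which was not measured in these libraries.

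The branched-chain and sulfur pathways were set beside the 39 genes. Of 10 branched-chain genes 7 were lower and none higher in wild-type cells, with a median of -0.76, and 9 were lower and 1 higher in *mrn1Δ* cells, with a median of -1.23. Of 11 sulfur genes tested, 10 were lower and 1 higher in each genotype, with medians of -1.66 and -2.15, further from 0 than the -0.85 and -0.93 of the 39. Over all genes tested, 36.4% were lower and 38.6% higher after the shift in wild-type cells, and 40.3% and 43.2% in *mrn1Δ* cells. In the branched-chain list 4 of 10 genes were lower in *mrn1Δ* than in wild-type cells in fermentative growth. After the shift 8 of 10 were lower. For the 39 these counts were none and 5, and over all genes the shares lower were 0.328% and 7.83%. These are counts and medians of each list, and the differences between lists were not tested.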

How the data were processed

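RNA was measured in 12 libraries, grouped by the sample labels. Per the labels, the authors depleted ribosomal RNA and prepared libraries with NEBNext Ultra II. Each deposited table holds, per coding sequence, an estimated count without scaling between libraries and a TPM summing to 1000000 per library, made with kallisto 0.44.0 and build R64 per the submitters' notes. The strand setting was not given in the sources used here, so reads of overlapping genes cannot be told apart.

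Counts were rounded and tested with edgeR 4.0.16 (TMM, default expression filter, robust quasi-likelihood F test, Benjamini-Hochberg over all genes, threshold 0.05) in R 4.3.3, each comparison on its own 6 libraries and the interaction on 12. Standard errors were derived from the F statistic. The study's methods name no test for these tables. TPM served for levels between genes. Non-whole counts marked 6 of the 39 genes as sharing reads. Depth sets a floor of 3 counts, 0.113 to 0.185 CPM, for counting error only. In the wild-type shift, same-numbered libraries had correlated deviations (0.113 to 0.208), so the replicate number was also fitted as a block there. The labels do not say what the number marks.

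On simulated data the test was checked with 200 changed genes. The members and lists were chosen with earlier results of these data known. One gene of the 39 stays in the counts and medians but is not reported here by its own values. Any other could be named, with genotype values where called or without overlap. Other lists gave *GCN4*, *MRN1*, *HIS3* and at most their 3 largest changes. Strain and mating-type checks, and members called only under an alternative, were chosen after their values were seen. Alternatives were DESeq2 1.42.0, upper-quartile scaling, no filter, at least 10 counts per library, the block, all 12 libraries in 1 fit, TPM for shares, and leaving out each library. Promoters were read from RefSeq's R64 genome, in which 5911 of 5917 identifiers matched.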

Additional observations from a re-analysis of the deposited data

How the results depend on the processing

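The counts of genes lower after the shift were 36 to 38 in wild-type and 34 to 37 in *mrn1Δ* cells under all alternatives, and none was higher. TPM was not among these alternatives. By TPM the 39 together took 0.667% to 0.782% of a fermentative library and 0.452% to 0.509% of a respiratory one. In *mrn1Δ* cells, however, *TRP4*, *HIS2*, *ARO3* and *SER3* were higher in TPM after the shift, without overlap. *TRP4* was at 92.1 to 103 TPM before and at 124 to 130 TPM after it. *SER3*, called lower there by counts, was at 86.1 to 102 TPM before and at 103 to 114 TPM after it. In wild-type cells *TRP4* was also higher in TPM without overlap, narrowly, at 91.0 to 111.1 TPM and at 111.9 to 134 TPM. The small changes, the lower call of *SER3* in *mrn1Δ* cells and the absence of higher genes thus hold for counts only. The genotype comparison in respiratory growth moved most. Against 5 lower and 1 higher, DESeq2 gave 8 and 0, upper-quartile scaling 9 and 0, and all 12 libraries in 1 fit 3 and 0. Leaving out each library gave 1 to 7 lower and 0 higher. In fermentative growth, against none, DESeq2 gave 1 lower, and leaving out each library gave 0 to 2 lower and 0 to 1 higher. For the interaction, against none, DESeq2 gave 2 lower, and leaving out each library gave 0 to 4 lower. With the replicate block the respiratory genotype comparison gave 6 lower and 0 higher, the fermentative one none and the *mrn1Δ* shift 37 lower, and the interaction gave 1 higher (*SER3*) and 2 lower (*HOM2* and *THR1*). In both genotype comparisons some same-numbered libraries had negative correlations, down to -0.157, and in the *mrn1Δ* shift they ran from 0.023 to 0.185. The interaction, whose block uses the pairs of both shifts, had no check of its own. The block changed the call of no gene pair, where an exact sign-flip test over pairs gave p = 0.03125, the smallest it could give. The 4 shares of isozyme pairs kept their direction and call under every alternative, that of *SER3* lying between 18.8 and 20.6 percentage points. In the shifts, signs turned for 2 genes with values near 0. In the other comparisons signs turned under at least 1 alternative for 12 of the 39 genes (fermentative genotypes), 14 (respiratory genotypes) and 8 (interaction), none of them called in those fits and none over 0.142 in size. The log2 fold change of *TRP4* ran from -0.071 to 0.056 in wild-type and from -0.038 to 0.066 in *mrn1Δ* cells when each library was left out, and it was -0.017 in *mrn1Δ* cells with DESeq2. That of *HIS2* in *mrn1Δ* cells ran from -0.069 to 0.020 when each library was left out, and was 0.0028 with upper-quartile scaling. The cause was not tested. Differences between genotypes near 0.2 on the log2 scale were at the limit of what 3 libraries a group resolved.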

Other observations

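Genes that break amino acids down or take them up were followed beside the synthesis genes, as lists of 8 and 14 genes. In each genotype 6 of the 8 breakdown genes rose with the shift and 2 fell by edgeR's quasi-likelihood test, with median log2 fold changes of 1.66 in wild-type and 1.73 in *mrn1Δ* cells. Of all genes tested, 38.6% were higher and 36.4% lower in wild-type cells, and 43.2% and 40.3% in *mrn1Δ* cells. *ARO9*, for an aminotransferase that starts the breakdown of aromatic amino acids, rose from 49.4, 100.2 and 92.5 CPM to 452, 808 and 684 CPM in wild-type cells (log2 fold change 3.0 ± 0.34 SE). *PUT1*, for proline oxidase, rose from 26.6, 33.6 and 39.9 CPM to 149, 201 and 190 CPM (2.43 ± 0.16 SE). *ARO10*, for the decarboxylase that acts after *ARO9*, rose by 2.35 ± 0.38 SE. Without the 1st wild-type fermentative library, the lowest for both, the changes were 2.72 for *ARO9* and 2.07 for *ARO10*. Conditions did not overlap for any of the 8 in either genotype, while 40.4% of all genes lay higher and 37.3% lower without overlap in wild-type cells, and 44.3% and 40.5% in *mrn1Δ* cells.

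Of 14 permeases, 6 were higher and 7 lower in wild-type cells, against 38.6% and 36.4% of all genes. In *mrn1Δ* cells 4 were higher and 8 lower, against 43.2% and 40.3% of all genes. *PUT4*, the proline permease, rose from 5.94, 9.64 and 8.43 CPM to 149, 223 and 179 CPM in wild-type cells (log2 fold change 4.52 ± 0.21 SE) and from 7.28, 8.24 and 7.11 CPM to 303, 343 and 318 CPM in *mrn1Δ* cells (5.40 ± 0.08 SE). *MUP1*, the methionine permease, fell by 2.40 and 2.19 on the log2 scale in wild-type and *mrn1Δ* cells.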
